A study of Mus musculus with 35 samples.

Results

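The clustered protocadherins of the mouse are the protein-coding genes whose symbols begin with *Pcdha*, *Pcdhb* or *Pcdhg*. By this rule, GENCODE gave 57 genes (14 alpha, 22 beta and 21 gamma), and the deposited map of ENSEMBL genes to Iso-seq loci placed them in 24 counted rows of the 55356 in the count table. The 14 alpha genes were counted together under 1 Iso-seq locus and the 21 gamma genes under another, called here the *Pcdha* locus and the *Pcdhg* locus, whereas each beta gene had a row of its own. All 24 rows passed edgeR's filter on low counts, which left 29911 genes. On mouse genome GRCm38, the genes lie in tandem on the plus strand of chromosome 18, the alpha cluster at chr18:36930184-37187661, the beta cluster at chr18:37264938-37524479 and the gamma cluster at chr18:37661793-37841873.

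Clustered protocadherins are cadherin-like cell surface proteins that bind the same isoform on a neighbouring cell. In the alpha and gamma clusters, each gene has a large first exon of its own with its own promoter, which codes for the extracellular and transmembrane parts and is spliced to constant exons that all genes of the cluster share. The beta genes have one coding exon each and no constant part. Neurons switch on a few of these promoters by a partly random choice that depends on DNA methylation, CTCF and cohesin, while the C-type genes at the end of the alpha and gamma clusters are used more broadly. The proteins are known for self-avoidance of dendrites, the spacing of axons and the survival of interneurons.

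RNA of adult C57BL/6J mice without a reported genetic change or treatment was sequenced as 29 rRNA-depleted, strand-specific RNA-seq libraries. They form 10 groups, namely female brain, cerebellum, heart, colon and ovary and male brain, cerebellum, heart, colon and testis, with 3 libraries a group except male heart with 2. Total counts per library ranged from 11742417 to 36194255. The labels do not tie the libraries to animals, so that a *P*-value measures the spread between libraries. CPM is the count scaled by the total of its library, and FPKM is CPM per kilobase of the exons of the counted row. In bulk tissue, fewer cells of a type and less RNA per cell cannot be told apart. Female heart replicate 3 stood apart from its group. Its correlation with its group was the lowest of all libraries (0.956), its cardiomyocyte markers summed to 17840 CPM against 35860 to 45420 CPM in the other 4 heart libraries, and its astrocyte markers reached 93.3 CPM where the median heart library had 8.37 CPM. The markers of the gonads followed the labels. The 3 testis markers summed to at least 4319 CPM in testis and to at most 5.20 CPM elsewhere, and the 3 ovary markers to at least 120.4 CPM in ovary and to at most 2.57 CPM elsewhere.

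What the 2 merged loci counted was set by the long reads. These came from 6 Iso-seq flow cells of gonads and of somatic tissues pooled within each sex, not from each tissue. The *Pcdha* locus held 4 Iso-seq transcripts, which begin in the own exons of *Pcdha12* (1 transcript), *Pcdhac1* (1) and *Pcdhac2* (2). Exon bases that belong to no other member were in the counted locus for 100% of *Pcdha12*, 99.4% of *Pcdhac1* and 98.0% of *Pcdhac2*, and for 0% of the 11 other alpha genes. Reads in the own exons of those 11 genes were therefore not counted for the cluster, and their transcripts could enter only through the shared constant exons. GENCODE gives the symbol *Pcdha11* to 2 of the 11, the first of which lies where RefSeq has *Pcdha10*.

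The *Pcdhg* locus held 23 Iso-seq transcripts, of which 19 begin in the own exon of a member. They begin in 7 of the A-type genes (*Pcdhga4*, *Pcdhga6*, *Pcdhga7*, *Pcdhga9*, *Pcdhga10*, *Pcdhga11* and *Pcdhga12*) and in the 3 C-type genes, with 3 transcripts for *Pcdhgc3*, 1 for *Pcdhgc4* and 2 for *Pcdhgc5*. The counted share of the own exon bases was 76.3% for *Pcdhgc3*, 73.5% for *Pcdhgc4* and 49.0% for *Pcdhgc5*. No Iso-seq transcript begins in a B-type gamma gene, and 10 gamma genes had 0% of their own bases counted. In the beta cluster, 15 genes had Iso-seq transcripts (17 in all, each of 1 exon) and 7 were counted on the ENSEMBL model. Of the exon bases that belong to 1 beta gene alone, the counted rows covered 36.1% for *Pcdhb14*, 39.8% for *Pcdhb19* and 45.5% for *Pcdhb22*, and at least 64.4% for every other beta gene. The highest tissue mean of the 15 ranged from 0.940 to 4.58 FPKM (median 1.62) and that of the 7 from 0.849 to 2.06 FPKM (median 1.17). These levels are not on a like length. Some Iso-seq rows are much shorter than the GENCODE exons (3138 against 8695 bases for *Pcdhb14*), which raises their FPKM. The plot of counted own exons shows which alpha and gamma genes the locus counts can represent.

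**Figure D1:**
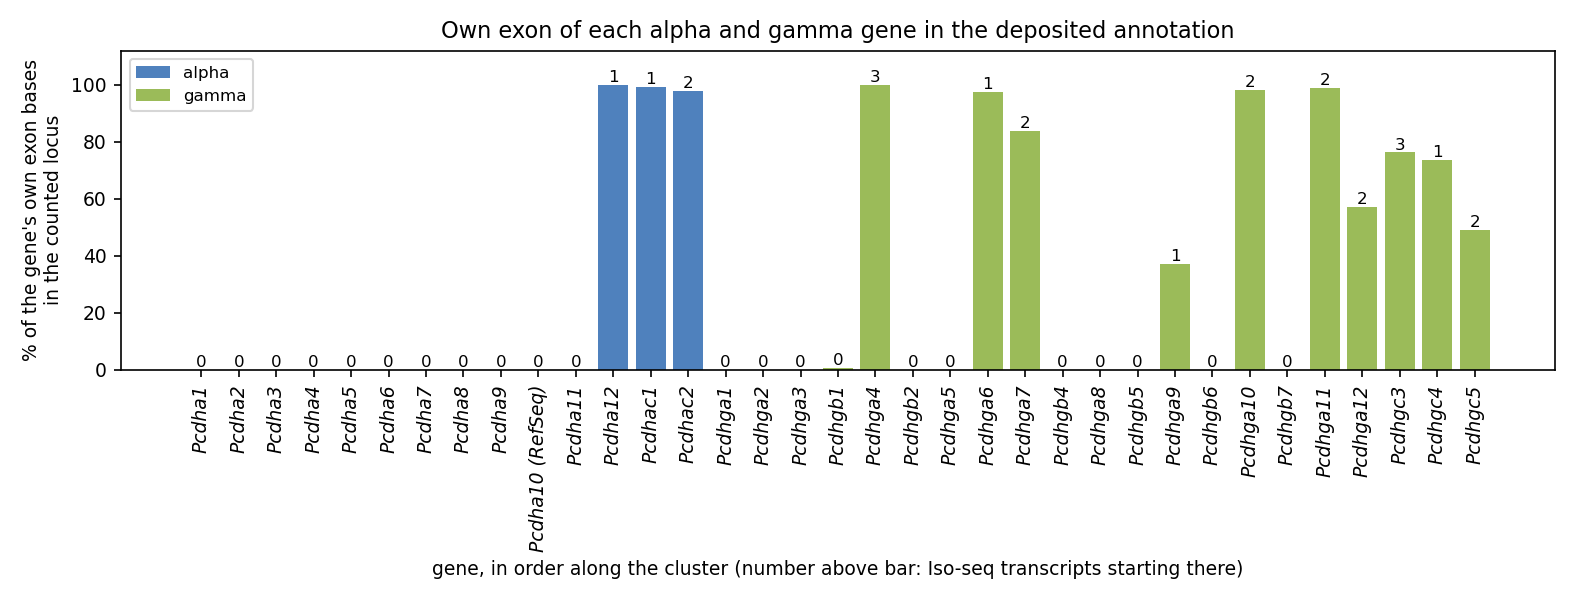
Share of the exon bases unique to each alpha (blue) and gamma (green) gene that lies in the exons of the counted locus, in percent, in order along each cluster. The number above each bar is the count of Iso-seq transcripts that begin there: 3 of 14 alpha genes and 10 of 21 gamma genes have at least 1.

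A further limit of the counts is strand. Libraries were strand-specific, but among 127 genes of over 200 bases that lie at least 99% inside the exons of an opposite-strand gene with over 2000 counts in all, the correlation of the inner with the outer gene over the 29 libraries had a median of 0.945, and the inner count did not exceed the outer in 99.6% of cases. Choosing such pairs by over 2000 counts of the inner gene instead gave 70 pairs, a median correlation of 0.978 and 99.4% of cases. The counts thus do not separate the strands, and reads on shared bases were counted on both genes. Of the 24 rows, 3 share exon bases with a counted gene of the opposite strand. The *Pcdha* locus shares 591 bases with *Gm10545*, *Pcdhb12* shares 1927 with *Gm37446*, and the *Pcdhg* locus shares 1523 with *BC037039*, 4350 with *Gm26672* and 518 with *Gm37165*. All counts of these opposite-strand rows together came to 6.19% of the *Pcdha* locus counts in brain and 4.98% in cerebellum, but to 37.7% of the *Pcdhg* locus counts in brain and 56.2% in cerebellum. For *Pcdhb12* the share was largest, as the mean CPM of *Gm37446* was 83.8% to 121% of that of *Pcdhb12* in the 6 tissues. Which strand these reads came from cannot be told apart. The other 21 beta rows overlap no other counted gene.

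All 3 clusters had their highest means in the neural tissues, and they differed in where else they were found. The *Pcdha* locus was at 92.5, 109 and 121 CPM (lowest, median and highest of 6 libraries) in brain and at 77.3, 80.96 and 94.6 CPM in cerebellum. In ovary its 3 libraries had 1.497, 1.85 and 1.14 CPM, in the 5 heart libraries 0.452, 1.28, 3.25, 1.17 and 0.873 CPM, and in colon 2.45, 3.10 and 3.86 CPM. In testis it was at 26.2, 29.1 and 25.4 CPM, so that every testis library lay above every ovary, heart and colon library and below every neural one. The highest heart value is that of female heart replicate 3.

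The *Pcdhg* locus had 226, 249 and 302 CPM in brain and 229.9, 293 and 367 CPM in cerebellum. It had 116, 143 and 158 CPM in the ovary libraries, 31.3, 57.9, 99.0, 56.4 and 45.7 CPM in the heart libraries, 35.4, 53.5 and 73.7 CPM in colon and 42.6, 41.5 and 50.4 CPM in the testis libraries. Ovary lay between the neural tissues and the rest without overlap, and the ranges of heart, colon and testis overlapped.

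The 22 beta genes summed to 117, 126 and 133 CPM in brain and 92.1, 103 and 117 CPM in cerebellum. Their sum was 95.3, 76.9 and 106 CPM in the ovary libraries, within or near the cerebellar range, but 10.7 to 39.3 CPM in heart, 22.8 to 35.0 CPM in colon and 19.2 to 21.0 CPM in testis. The plot of CPM by library shows the near absence of alpha counts in ovary beside abundant beta and gamma counts.

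**Figure D2:**
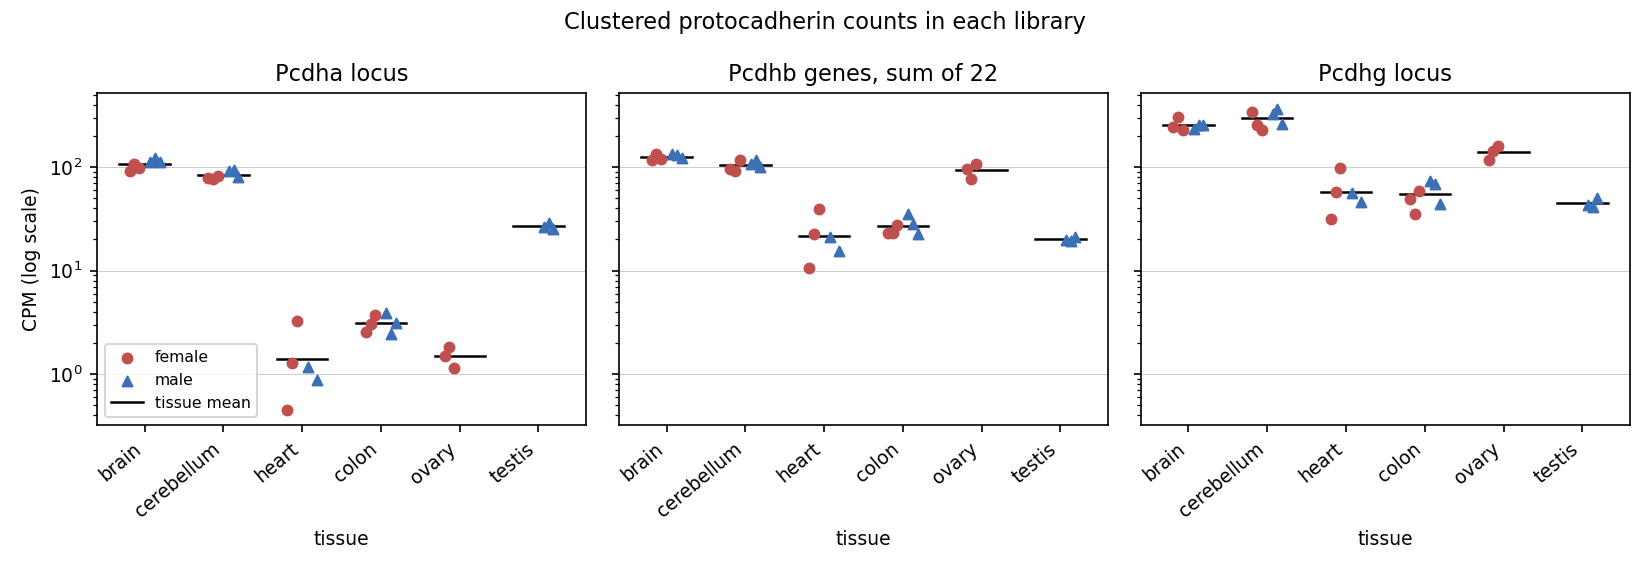
CPM on a log scale in each of the 29 libraries for the Pcdha locus, the sum of the 22 Pcdhb genes and the Pcdhg locus, with female libraries as circles, male libraries as triangles and the mean of each tissue as a line. Alpha falls from 107 CPM in brain to 1.49 CPM in ovary, while beta has 126 and 92.8 CPM and gamma 252 and 139 CPM in the same tissues.

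Per exon length, the *Pcdhg* locus was at 9.38 ± 1.01 FPKM (SD, n = 6) in brain and 11.0 ± 2.02 FPKM in cerebellum, and the *Pcdha* locus at 9.81 ± 0.935 and 7.70 ± 0.675 FPKM. These levels rest on the counted exons of each locus (10907 bases for alpha and 26865 for gamma). Per GENCODE exon length they were 3.68 and 4.33 FPKM for *Pcdhg* and 2.63 and 2.06 FPKM for *Pcdha*, so that the order of the loci in brain depends on the length used.

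Levels of single beta genes were low, with tissue means of at most 4.58 FPKM. The 3 with the highest level over brain and cerebellum were *Pcdhb9* (3.43 ± 0.521 FPKM in brain and 2.83 ± 0.161 in cerebellum), *Pcdhb17* (3.21 ± 0.393 and 2.87 ± 0.584) and *Pcdhb14* (2.97 ± 0.483 and 3.06 ± 0.748). Their ranges over the brain libraries overlap, so that their order is not set. The rank of *Pcdhb14* rests on the short Iso-seq row. Per GENCODE exon length it was at 1.07 FPKM in brain and 1.10 in cerebellum, below *Pcdhb12* (2.34 and 1.71), *Pcdhb16* (2.06 and 1.93) and *Pcdhb20* (2.13 and 1.77). In brain, 18 beta genes had a mean of at least 1 FPKM, in cerebellum 14, in ovary 10 and in heart, colon and testis 0. Per counted length, genes of the second part of the cluster were at higher levels, as the Spearman correlation between position and mean FPKM was 0.67 in brain, 0.69 in cerebellum and 0.76 in heart, but 0.39 in ovary and 0.17 in testis. Per GENCODE exon length it was 0.29 in brain, 0.47 in cerebellum, 0.76 in heart, 0.098 in ovary and -0.040 in testis. In brain, ovary and testis it thus depended on the length used, with the sign turned in testis. These are descriptions over 22 neighbouring genes, and each row's length enters its FPKM.

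The order of the beta genes was shared between tissues except testis. The Spearman correlation of tissue means over the 22 genes was 0.92 between brain and cerebellum and 0.695 to 0.849 between the other pairs that leave out testis, and it was 0.248 to 0.354 between testis and each other tissue. The genes share libraries, so these values carry no test. Of the 22 genes, 15 had their highest mean in brain, 3 in cerebellum (*Pcdhb4*, *Pcdhb14* and *Pcdhb22*), 3 in ovary (*Pcdhb8*, *Pcdhb9* and *Pcdhb11*) and 1 in testis (*Pcdhb1*). Tau, an index of tissue specificity that is 0 for an even level and 1 for a single tissue, was 0.494 to 0.956 over the beta genes (median 0.614), 0.782 for the *Pcdha* locus and 0.630 for the *Pcdhg* locus.

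**Figure D3:**
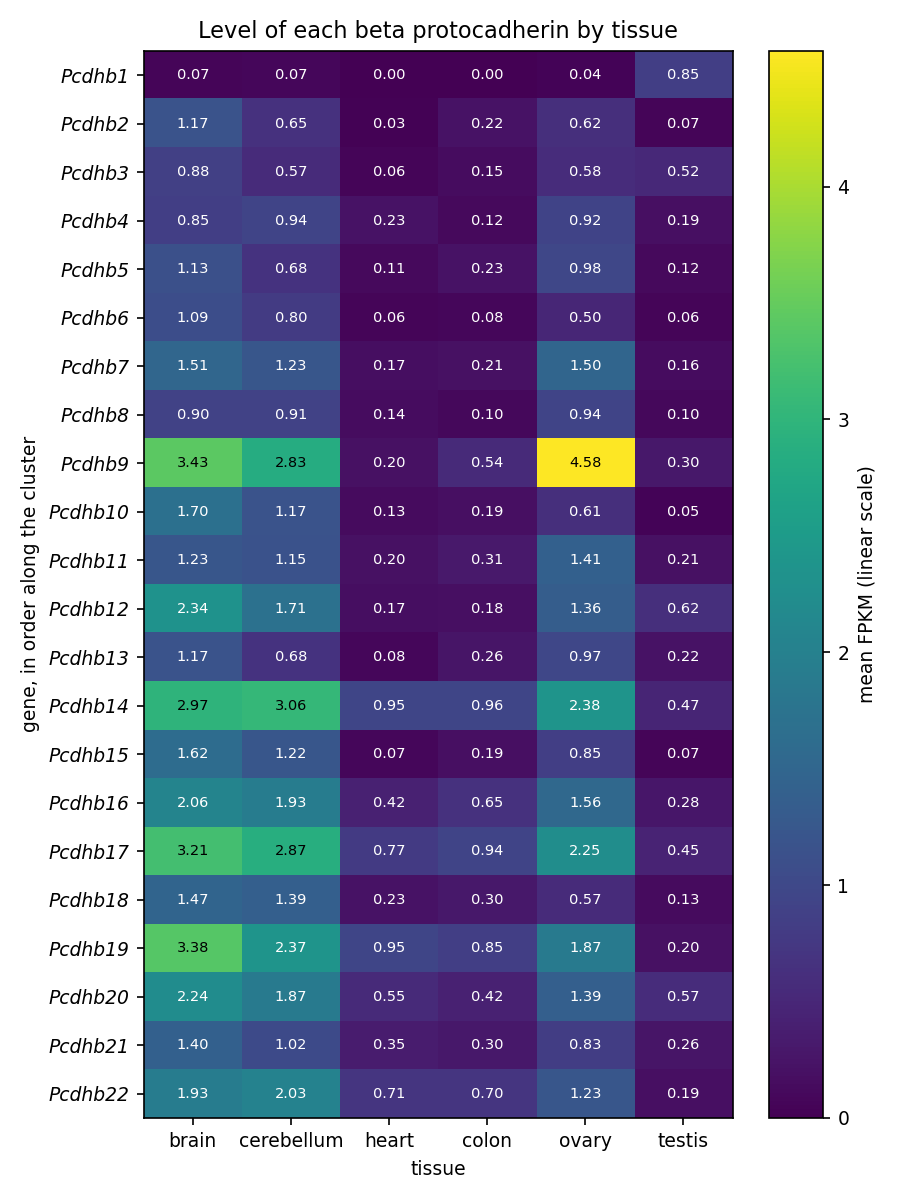
Mean FPKM (linear colour scale, value printed in each cell) of the 22 beta genes, in order along the cluster, in 6 tissues. Pcdhb9 in ovary is the brightest cell at 4.58 FPKM, and Pcdhb1 exceeds 0.1 FPKM in testis alone, at 0.849 FPKM.

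Against the mean log2 level of the 4 non-neural tissues, brain and cerebellum together were called higher for all 24 rows (22 of 22 beta rows and both merged loci), though for *Pcdhb1* the mean CPM ran the other way. In this comparison, 34.8% of all genes tested were called higher, 27.5% lower and 62.2% in either direction. The *Pcdha* locus differed by 4.66 on the log2 scale (SE 0.12, edgeR, adjusted P = 2.29e-21) and the *Pcdhg* locus by 1.98 (SE 0.11, adjusted P = 8.75e-15). With all counts of the opposite-strand rows removed, both loci were still called (4.66 and 2.42). The median over the 22 beta genes was 1.79, where the median of all genes was -0.14. The largest differences were those of *Pcdhb6* (3.09, SE 0.22), *Pcdhb10* (3.05, SE 0.27) and *Pcdhb15* (2.99, SE 0.18), with adjusted P of 1.61e-12, 1.19e-10 and 6.8e-14 (edgeR). *Pcdhb1* was the weakest call (edgeR, adjusted P = 0.0331). Its mean was 0.180 CPM over the 2 neural tissues and 0.579 CPM over the 4 non-neural ones, of which testis held nearly all, and its fitted difference is above 0 because it averages logs over heart and colon, with 0 counts and 1 count. *Pcdhb1* lost the call with DESeq2 (adjusted P = 0.259), and in edgeR with a replicate block (adjusted P = 0.0534) and with a block by library code (adjusted P = 0.0806). It also lost the call without 1 of 5 single libraries, namely female brain replicate 3, male brain replicate 1, male cerebellum replicate 2 or 3 or testis replicate 2 (adjusted P = 0.0583 to 0.062). The 5 neuronal markers summed to 2893 to 4056 CPM in brain and 1512 to 2377 CPM in cerebellum, against 3.03 to 43.1 CPM in the other tissues. All 4 astrocyte and all 4 oligodendrocyte markers were called higher as well, and the 2 oligodendrocyte precursor markers lower. The part of these markers in the differences was not tested.

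Brain against cerebellum was the comparison within the nervous system. The *Pcdha* locus was higher in brain by 0.49 on the log2 scale (SE 0.16, edgeR, adjusted P = 0.021), or 1.40-fold. The highest cerebellar library (94.6 CPM) lay above the lowest brain library (92.5 CPM), so the ranges touch. The call was lost without female brain replicate 2, male brain replicate 2 or male cerebellum replicate 3 (adjusted P = 0.0514 to 0.0576), without the filter on low counts (adjusted P = 0.0633) and with a block by library code (adjusted P = 0.0579). The *Pcdhg* locus did not pass the test (-0.10, SE 0.16, adjusted P = 0.774), with an approximate 95% interval of -0.41 to 0.22.

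Of the 22 beta genes, 4 were called higher in brain and 0 lower, where 15.3% of all genes were called higher, 10.8% lower and 26.1% in either direction. At an unadjusted P under 0.05, 8 beta genes were higher and 0 lower, where 20.1% of all genes were higher at that threshold. DESeq2 called 7 higher and 0 lower, where it called 15.0% of all genes higher and 12.6% lower. *Pcdhb2* was at 0.961, 1.18 and 1.34 FPKM in brain and 0.522, 0.615 and 0.884 FPKM in cerebellum (lowest, median and highest of 6), a difference of 1.00 on the log2 scale (SE 0.22, edgeR, adjusted P = 0.00108). *Pcdhb13* was at 1.06, 1.15 and 1.35 FPKM against 0.523, 0.630 and 0.956 FPKM (0.93, SE 0.28, adjusted P = 0.0136). For both genes, every brain library was above every cerebellar library. *Pcdhb5* was at 0.907, 1.195 and 1.26 FPKM against 0.596, 0.649 and 0.800 FPKM (0.87, SE 0.20, adjusted P = 0.00175), again without overlap. *Pcdhb19* was at 2.54, 3.48 and 3.94 FPKM against 1.48, 2.39 and 3.20 FPKM, with overlapping ranges (0.66, SE 0.23, adjusted P = 0.0298). The call of *Pcdhb19* was lost without the filter on low counts and without 1 of 6 single libraries, namely female brain replicate 2 or 3, male brain replicate 2, female cerebellum replicate 1 or 2 or male cerebellum replicate 3 (adjusted P = 0.0512 to 0.0824).

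The differences of the 22 beta genes ran from -0.01 (*Pcdhb4*) to 1.00, with 21 of 22 above 0 and a median of 0.42, where the median of all genes was 0. The signs of small differences depend on how libraries are scaled and averaged. By mean CPM of library totals, 17 of 22 beta genes were higher in brain and 5 lower (*Pcdhb1*, *Pcdhb4*, *Pcdhb8*, *Pcdhb14* and *Pcdhb22*). Their counts are small, and the SE had a median of 0.24. Without overlap between the 6 brain and the 6 cerebellum libraries in CPM, 4 beta genes lay above (*Pcdhb2*, *Pcdhb5*, *Pcdhb10* and *Pcdhb13*), a pattern that 9.26% of all genes tested showed. None lay below, as 9.33% of all genes did. A fit on the 12 brain and cerebellum libraries alone, which does not borrow the spread of the other tissues, called 12 of the 21 beta genes it tested higher, where it called 22.7% of its genes higher.

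**Figure D4:**
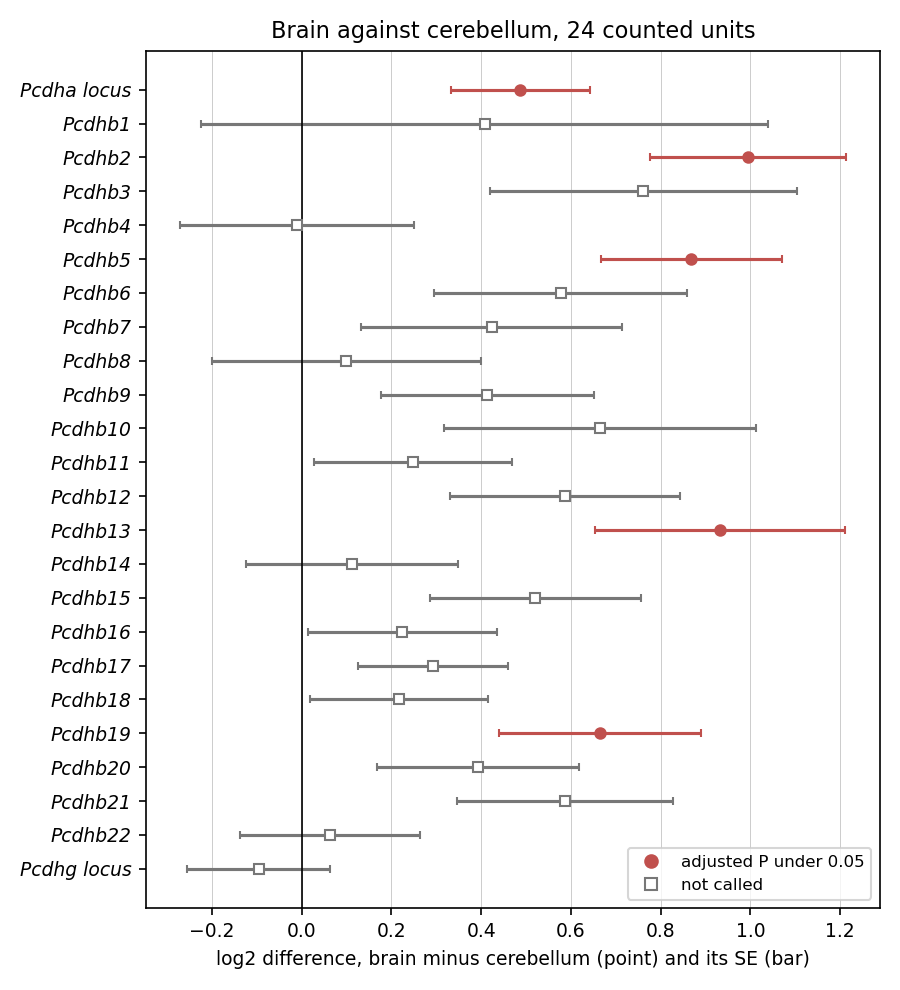
Log2 difference of brain minus cerebellum (points) with its SE (bars) for the Pcdha locus, the 22 beta genes and the Pcdhg locus, from edgeR on counts, with filled red circles for an adjusted P under 0.05 and open grey squares otherwise. The Pcdha locus (0.49) and Pcdhb2, Pcdhb5, Pcdhb13 and Pcdhb19 (0.66 to 1.00) are called, and the Pcdhg locus lies at -0.10.

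Within a library, alpha counts per gamma count were 0.355 to 0.483 in brain (mean 0.428 ± 0.0523, n = 6) and 0.231 to 0.355 in cerebellum (0.289 ± 0.0430). The lowest brain library and the highest cerebellar library nearly touched, and the mean log2 difference was 0.57. It was 0.42 among the female and 0.72 among the male libraries. This ratio was computed after the values had been seen and carries no test. With all counts of the opposite-strand rows removed, the ratio was 0.526 to 0.730 in brain and 0.483 to 0.792 in cerebellum, the ranges overlapped, and the difference was 0.05. The removal also takes away reads outside the shared bases and reads of the members themselves. In the same setting, the *Pcdhg* locus differed between brain and cerebellum by 0.41 (adjusted P = 0.0705, edgeR), with the sign turned.

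**Figure D5:**
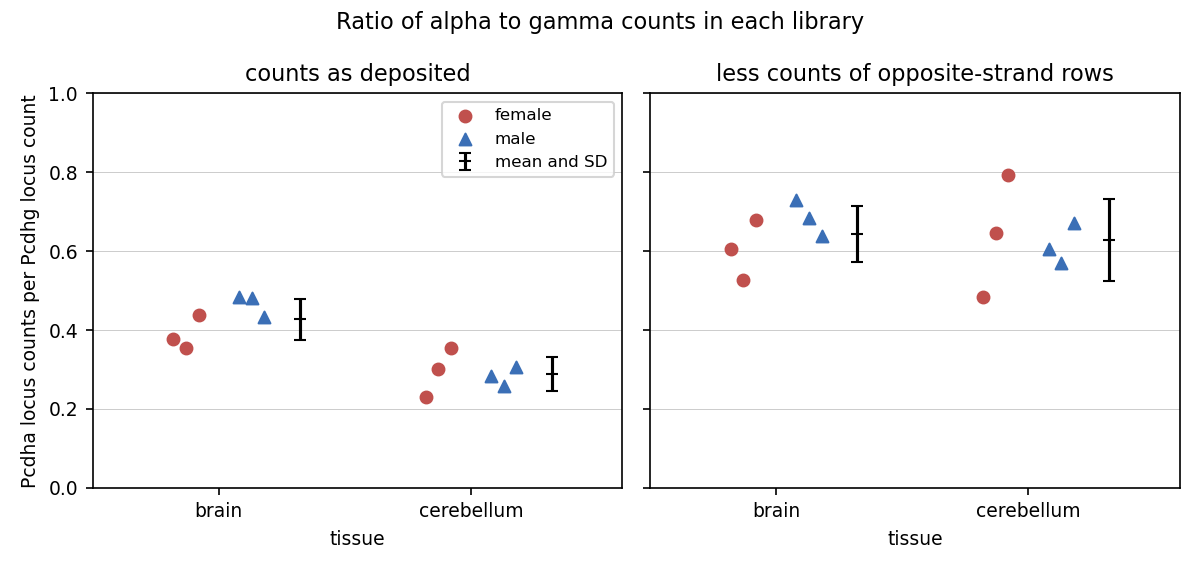
Counts of the Pcdha locus per count of the Pcdhg locus in each brain and cerebellum library, with the deposited counts (left) and after removal of all counts of opposite-strand rows that share exon bases (right), with the mean and SD of each tissue as a bar. The brain and cerebellum means are 0.428 and 0.289 on the left and 0.644 and 0.628 on the right.

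The largest count among the opposite-strand rows was that of *BC037039*. This row is 1 exon of 2205 bases on the minus strand, of which 70.7% lie within the own exon of *Pcdhgc3*, the first C-type gene of the gamma cluster, and they cover 46.1% of that exon. It had 48.8, 54.7 and 67.6 CPM (lowest, median and highest) in brain and 90.6, 123 and 158 CPM in cerebellum, without overlap, a difference of -0.98 on the log2 scale (SE 0.18, edgeR, adjusted P = 0.00019). In ovary its mean was 72.1 ± 16.0 CPM (n = 3), in heart 23.8 ± 11.9 CPM (n = 5), in colon 22.2 ± 6.26 CPM (n = 6) and in testis 16.1 ± 3.85 CPM (n = 3). *Gm26672*, whose exons cover all of the own exon of *Pcdhga10* and parts of those of *Pcdhgb7*, *Pcdhga11* and *Pcdhga12*, had 32.8 ± 3.18 CPM in brain and 37.1 ± 5.37 CPM in cerebellum and did not pass the test (-0.04, SE 0.14, adjusted P = 0.962). *Gm10545*, which covers 53.2% of the own exon of *Pcdha11* and 21.5% of that of *Pcdha12*, was higher in brain by 0.80 (SE 0.28, adjusted P = 0.0406), and *Gm37446*, whose bases lie to 46.6% in *Pcdhb12*, by 0.64 (SE 0.24, adjusted P = 0.0479). These 4 rows were chosen for their overlap with members after values had been seen. As the counts do not separate the strands, their reads on shared bases may be those of the members.

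Cell type markers also moved between the 2 neural tissues. Of the 5 general neuronal markers, 3 were called higher in brain, with a median of 0.80 over the list, and of the 3 inhibitory neuron markers 1 was called in each direction. All 4 forebrain neuron markers were higher in brain (summed 181 to 329 CPM against 6.89 to 18.8 CPM), and the 4 granule cell markers tested (17.6 to 37.8 against 425 to 741 CPM) and all 4 Purkinje cell markers (180.3 to 250.3 against 2681 to 4310 CPM) were higher in cerebellum. The 4 choroid plexus markers were higher in cerebellum as well, and they varied within a tissue, from 43.0 to 1731 CPM in brain and from 1133 to 4325 CPM in cerebellum. Of the 3 serotonergic neuron markers, 2 were lower in brain (summed 1.35 to 20.01 against 1.99 to 30.7 CPM). The 3 microglia markers were higher in brain (174 to 239 against 82.5 to 112.1 CPM). The 4 oligodendrocyte markers summed to 3775 to 8089 CPM in brain and 3426 to 10950 CPM in cerebellum, and of the 4 astrocyte markers 1 was called in each direction. None of these lists had a marker at 0 in every library of either tissue. Their part in the differences of the protocadherins was not tested.

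In brain and cerebellum, sex made no detectable difference to any of the 24 rows. Heart and colon also had both sexes, but sex was not tested there. In brain, edgeR called 0 rows, where it called 0.0368% of all genes (0.0201% higher and 0.0167% lower), with 0 rows at an unadjusted P under 0.05, as 4.83% of all genes were. In cerebellum it called 0 rows, where it called 0.0301% of all genes (0.0167% higher and 0.0134% lower), and 1 row had an unadjusted P under 0.05 (*Pcdhb1*, with 0, 2 and 2 counts in the male and 3, 10 and 12 counts in the female libraries), as had 3.06% of all genes. The interaction of sex with the 2 tissues called 0 of the 24 rows and 0% of all genes, with 0 rows and 1189 of all genes at an unadjusted P under 0.05. DESeq2 called 0 rows in all 3. For male minus female brain, the *Pcdha* locus had 0.28 (SE 0.22) and the *Pcdhg* locus 0.01 (SE 0.23), and in cerebellum they had 0.18 (SE 0.22) and 0.21 (SE 0.23). The median SE over the beta genes was 0.33 in brain and 0.34 in cerebellum, so that with 3 libraries a group small differences were not detectable.

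Each non-neural tissue was then compared with the mean of the other non-neural tissues, and ovary stood out by its beta genes. In ovary, 21 of 22 beta genes were higher and 0 lower (edgeR, with 21 higher and 0 lower also with DESeq2), where 22.7% of all genes were called higher, 18.1% lower and 40.8% in either direction. *Pcdhb1* was the exception, with 4, 0 and 3 counts in the ovary libraries and a mean of 0.1095 CPM, below the 0.736 CPM over heart, colon and testis. The largest difference was that of *Pcdhb9*, which had 4.23, 3.62 and 5.90 FPKM in the ovary libraries against at most 0.923 FPKM in heart, colon and testis (3.36 on the log2 scale, SE 0.24, adjusted P = 3.43e-11). *Pcdhb9* made up 14.9% ± 1.77 of all beta counts in ovary and 8.29% ± 1.12 in brain. *Pcdhb7* had 1.29, 1.61 and 1.6 FPKM (2.59, SE 0.30, adjusted P = 1.4e-07) and *Pcdhb2* had 0.729, 0.486 and 0.658 FPKM (2.51, SE 0.25, adjusted P = 1.12e-08). The *Pcdhg* locus was higher in ovary by 0.86 (SE 0.17, adjusted P = 0.000162), while the *Pcdha* locus was lower, at -2.25 (SE 0.23, adjusted P = 1.73e-08). The *Pcdha* mean of ovary (1.49 CPM) was near that of heart (1.40 CPM), below colon (3.13 CPM) and far below testis (26.9 CPM). The 9 genes from *Pcdhb14* on had a median difference of 1.09 and the 13 before them one of 2.12.

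Testis showed the reverse order of the clusters. The *Pcdha* locus was higher than in the other non-neural tissues by 4.15 (SE 0.16, edgeR, adjusted P = 7.9e-18). Its counts in testis were 745, 901 and 782. Markers of neurons also differed in testis, with 3 of 5 general neuronal markers higher and 1 lower (median 0.72), and 2 of 4 forebrain, 2 of 3 inhibitory and 2 of 3 serotonergic neuron markers and 3 of 5 markers of enteric neurons and glia higher. Of the 4 granule cell markers tested, 1 was higher and 0 lower, and of the 4 Purkinje cell markers 0 were higher and 1 lower. Of all genes, 41.7% were called higher in testis and 27.0% lower. The general neuronal markers summed to 8.93 to 10.1 CPM in testis, below the 14.8 to 20.8 CPM in ovary and the 26.8 to 43.1 CPM in colon, where the *Pcdha* locus was lower. None of these general neuronal markers was at 0 in all testis libraries, and the part of the lists in the difference was not tested. The *Pcdhg* locus was at -0.48 (SE 0.18, adjusted P = 0.0246), a call that was lost with RLE factors, with DESeq2, without testis replicate 1 or 2, and once counts of opposite-strand rows were removed (adjusted P = 0.0538 to 0.181).

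Among the beta genes, 3 were higher in testis and 12 lower, where 41.7% of all genes were called higher, 27.0% lower and 68.7% in either direction. *Pcdhb1*, the first gene of the cluster, had 75, 56 and 66 counts in testis (1.02, 0.6997 and 0.829 FPKM) and was called higher (edgeR, adjusted P = 3.71e-09). It passed the filter on low counts through testis, as 3 testis libraries and 1 other library reached the filter's level, so that this call is no more than a description. The 5 heart libraries had 0 counts and the 6 colon libraries 1 count in all. With a floor of 3 counts a library, the lowest testis library was at least 11.8-fold higher than heart and at least 7.09-fold higher than colon. In the neural libraries *Pcdhb1* had 28 counts over 6 brain libraries and 29 over 6 cerebellum libraries, and the lowest testis library exceeded the highest of them 4.09-fold in CPM. *Pcdhb1* thus took 11.0% ± 2.02 of the beta counts in testis and 0.138% ± 0.109 in brain. *Pcdhb3* had 0.566, 0.350 and 0.644 FPKM in testis (1.83, SE 0.37, adjusted P = 8.9e-05) and *Pcdhb12* had 0.533, 0.756 and 0.568 FPKM (1.10, SE 0.29, adjusted P = 0.00171). In testis *Gm37446* had 2.10 CPM and *Pcdhb12* 1.88 CPM on average, so that the strand of this call cannot be told apart. The largest decreases were those of *Pcdhb19* (-2.22, SE 0.32, adjusted P = 9.95e-07), with 21, 15 and 16 counts, *Pcdhb22* (-1.85, SE 0.28, adjusted P = 1.83e-06) with 10, 17 and 22 counts, and *Pcdhb10* (-1.92, SE 0.57, adjusted P = 0.0041) with 2, 4 and 7 counts. The median over the 22 genes was -0.93, where that of all genes was 0.18.

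In heart, 2 beta genes were higher and 9 lower, where 21.6% of all genes were called higher, 29.3% lower and 51.0% in either direction. *Pcdhb19*, the beta gene with the highest mean FPKM per counted length in heart, had 0.391, 0.969, 1.26, 1.38 and 0.768 FPKM (1.01, SE 0.22, edgeR, adjusted P = 0.000433), and *Pcdhb22* was higher by 0.86 (SE 0.20, adjusted P = 0.000728). Per GENCODE exon length the heart mean of *Pcdhb19* was 0.380 FPKM, below *Pcdhb17* (0.549) and *Pcdhb20* (0.525). *Pcdhb2*, with 1 to 3 counts a library, was lower (-2.34, SE 0.35, adjusted P = 2.86e-06), as were *Pcdhb3* (-2.02, SE 0.43, adjusted P = 0.000286) and *Pcdhb9* (-1.94, SE 0.31, adjusted P = 6.12e-06). The *Pcdha* locus was at -1.46 (SE 0.20, adjusted P = 6.09e-07), and the *Pcdhg* locus did not pass the test (0.20, SE 0.15, adjusted P = 0.31). For *Pcdha*, the tissues compared with include testis at 26.9 CPM, and heart (1.40 CPM) lay near ovary (1.49 CPM). The median of all genes was -0.53 here, so that a beta gene at 0 lies above the median gene. The differences rose along the cluster, with a median of -1 over the first 13 beta genes and 0.14 over the last 9. Female heart replicate 3 had the highest *Pcdha* and *Pcdhg* values of the heart libraries. Leaving out any single library kept both loci on the same side of the threshold, with -1.74 to -1.30 for *Pcdha* and 0.12 to 0.30 for *Pcdhg*. Without that library, *Pcdhb3*, of which it held 16 of the heart counts against 0 to 7 in the others, was at -3.44.

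In colon, 0 beta genes were higher and 7 lower, where 26.8% of all genes were called higher, 28.4% lower and 55.2% in either direction. DESeq2 called 0 higher, and 0 beta genes were higher at an unadjusted P under 0.05, with *Pcdhb2* nearest (0.59, SE 0.26, unadjusted P = 0.0506, adjusted P = 0.0864, edgeR). The count of 0 is not firm, as 1 beta gene was called higher with RLE factors and 1 without male colon replicate 3. The count of 7 lower fell to 4 without the filter on low counts and to 4 with a block by library code. The largest decreases were those of *Pcdhb12* (-1.78, SE 0.30, edgeR, adjusted P = 1.21e-05), *Pcdhb4* (-1.71, SE 0.30, adjusted P = 2.27e-05) and *Pcdhb8* (-1.41, SE 0.36, adjusted P = 0.00138). For *Pcdhb12* the strand again cannot be told apart, since *Gm37446* had 0.663 CPM in colon and *Pcdhb12* had 0.548 CPM. *Pcdhb14* had the highest mean FPKM per counted length in colon, at 0.574, 0.933 and 1.33 FPKM (lowest, median and highest of 6), and differed by -0.25 (SE 0.23, adjusted P = 0.399). Per GENCODE exon length its colon mean was 0.346 FPKM, below *Pcdhb17* (0.668) and *Pcdhb16* (0.649). The *Pcdhg* locus was lower by 0.58 (-0.58, SE 0.15, adjusted P = 0.00142). The *Pcdha* locus was at -0.44 (SE 0.17, adjusted P = 0.0319), where the median of all genes was -0.27, and this call was lost with RLE factors, with DESeq2, without the filter on low counts and without any of 6 single libraries (female colon replicate 1 or 2, male colon replicate 2, ovary replicate 2, testis replicate 2 or male heart replicate 1), with adjusted P of 0.0516 to 0.161. The *Pcdha* mean of colon (3.13 CPM) lay above those of ovary (1.49 CPM) and heart (1.40 CPM) and below that of testis (26.9 CPM). The 5 neuronal markers summed to 26.8 to 43.1 CPM in colon and 3.03 to 4.62 CPM in heart, and their part was not tested.

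Genes that act beside the clusters were taken from 3 lists. Of 15 non-clustered protocadherins and *Celsr* genes, which are single genes of the same superfamily, 12 were higher in brain than in cerebellum and 2 lower, where 15.3% of all genes were called higher and 10.8% lower, with a median of 1.16 where that of all genes was 0. *Pcdh8* (2.82, SE 0.32, edgeR, adjusted P = 3.44e-07) and *Pcdh1* (1.88, SE 0.18, adjusted P = 8.37e-09) rose most, and *Pcdh12* (-1.48, SE 0.50, adjusted P = 0.0297) and *Celsr3* (-0.60, SE 0.19, adjusted P = 0.0213) were lower. Of 21 genes for CTCF, cohesin, DNA methylation and related chromatin factors, which act on the promoter choice, 1 was higher in brain (*Pds5b*, a regulator of cohesin, 0.70, SE 0.12, adjusted P = 9.57e-05) and 3 were lower, with *Dnmt3b*, a DNA methyltransferase (-0.94, SE 0.34, adjusted P = 0.0433), and the zinc finger gene *Wiz* (-0.93, SE 0.17, adjusted P = 0.000175) lowest. The median of the list was -0.04. Of 21 genes for processing and signalling partners, 8 were higher and 3 lower, with a median of 0.14. The kinase gene *Ptk2b* (4.99, SE 0.18, adjusted P = 1.25e-15) and *Wasf1*, a subunit of the WAVE complex (1.75, SE 0.21, adjusted P = 3.04e-07), were higher, and the receptor kinase *Ret* (-1.31, SE 0.27, adjusted P = 0.000496) and the presenilin gene *Psen2* (-0.61, SE 0.15, adjusted P = 0.0037) were lower. In the neural tissues against the other tissues, these lists had 12 of 15, 11 of 21 and 13 of 21 genes higher and 2, 5 and 5 lower, where 34.8% of all genes were higher and 27.5% lower.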

How the data were processed

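The authors deposited raw read counts per gene for 29 mouse RNA-seq libraries, on GRCm38.p6 and an annotation of Iso-seq transcripts and ENSEMBL genes. Their notes name FastQC 0.11.8, MultiQC 0.9, HISAT2 2.0.5 and featureCounts 1.6.3. Reads with more than one alignment did not enter, and the strand setting is not given in the sources used here. Total counts limit the precision of low genes. GENCODE gave names and biotypes. CPM and FPKM were computed here from library totals and union exon lengths. All groups entered one edgeR 4.0.16 quasi-likelihood fit (R 4.3.3, TMM, filterByExpr), with Benjamini-Hochberg adjustment over 29911 genes and calls at 0.05, and it was tested on simulated data. Alternatives were DESeq2 1.42.0, RLE factors, no filter, a threshold of 0.01, the neural libraries alone, replicate blocks and each library left out. The members and lists were chosen with earlier results of these data known. Named genes are the C-type members, the 3 highest beta genes over brain and cerebellum, up to 3 calls per comparison and direction, and 2 per list and direction. Other genes were named after their values were seen.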

Additional observations from a re-analysis of the deposited data

Results flagged for a closer look

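*Pcdhgb8* lies inside the gamma cluster but has the biotype polymorphic pseudogene, so it was not a member. Its row, which shares 2116 bases with the *Pcdhg* locus on the same strand, was not counted with the members and held counts in every library, with a median of 58 counts (10 to 119). It had 58 to 82 counts in brain, 54 to 119 in cerebellum, 16 to 85 in heart, 10 to 35 in colon, 41 to 78 in ovary and 37 to 50 in testis. Reads on the shared bases may also be in the *Pcdhg* locus counts, which was not tested. Among the rows that overlap a member, it was called higher in the neural tissues (0.64 on the log2 scale, SE 0.16, edgeR, adjusted P = 0.00104).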

How the results depend on the processing

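Comparisons were recomputed under the alternatives that applied to them. The fit on the neural libraries alone covers only brain against cerebellum and the sex comparisons. Of the values that answer a comparison, 1068 kept their direction and side of the threshold (counts, within 1.5 times), 21 lost their call, 11 moved and 2 turned sign. For brain minus cerebellum, the beta genes called higher numbered 12 with the neural libraries alone (22.7% of all genes), 7 with DESeq2 (15.0%) and 2 at 0.01 (10.7%). The *Pcdha* locus lost its call without the low-count filter (0.43) and at 0.01 (0.49), and leaving out single libraries gave 0.45 to 0.52. The *Pcdhg* locus turned to 0.41 with counts of opposite-strand rows subtracted, and ran from -0.17 to 0.0067 with single libraries left out, the latter without female cerebellum replicate 1. In testis it lost its call with RLE factors and DESeq2 (-0.39 in both) and with the subtraction (-0.29), and had -0.58 to -0.43 with single libraries left out. In colon, 1 beta gene was higher with RLE factors and 0 to 1 with single libraries left out, and 4 were lower without the filter. The *Pcdha* locus in colon lost its call with RLE factors (-0.33), without the filter (-0.33) and with DESeq2 (-0.33), and had -0.51 to -0.34 with single libraries left out. The subtraction was chosen after seeing the data, and it brought the log2 alpha to gamma ratio (*Pcdha* to *Pcdhg* locus, brain minus cerebellum) from 0.57 to 0.045. With GENCODE exon lengths, brain FPKM was 2.63 for *Pcdha*, 3.68 for *Pcdhg* and 1.19 for the beta median. The cause was not tested for any of these but the FPKM, where the length itself changed.

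Whether libraries share an animal is not known. Deviations of same-numbered brain and cerebellum libraries correlated at -0.03 to 0.08. Those of differently numbered ones correlated at -0.063 to 0.072, so these values cannot settle the pairing. With a replicate block, the *Pcdha* locus kept its call (0.48 on the log2 scale, edgeR) and 4 beta genes were higher in brain. With a block by library code it lost the call (0.43, adjusted P = 0.0579), in colon as well (-0.38), with 4 beta genes lower. Depth limits the genes with few counts, *Pcdhb1* above all.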
